A study of Rattus norvegicus with 145 samples.

Results

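The 10 genes described here are established targets of the transcription factor p53: Cdkn1a, Mdm2, Ccng1, Bax, Phlda3, Btg2, Aen, Gdf15, Plk2 and Zmat3. They were taken by symbol from the rows of 5 tables of raw RNA-Seq counts from rat liver, each listing 17337 genes. All 10 symbols were present in every table, and all 10 passed the filter on low counts in every fit, which tested 11279 to 11497 genes in the dose comparisons.

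The rats were Wistar rats given acetamide in water, or water alone as vehicle, by daily gavage, and liver RNA was taken from the left lobe. Experiment A used Hsd:WI males of 9 to 10 weeks given water or a daily dose, in mg/kg/day (mkd), of 30, 100, 300 and 1000 for 7 days, and sampled on day 8. Experiment B used Crl:WI males and females of 8 to 10 weeks given 0, 300, 500, 750, 1000 or 1500 mkd for 7 or 28 days and sampled on day 8 or day 29. Each of the 29 groups held 5 rats, and each table held 1 experiment, sex and day with its own vehicle group. Rats are numbered here by their order within a group, which in experiment A is not always the number in the label.

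p53 is held at a low level in unstressed cells because Mdm2, itself a p53 target, marks it for degradation. When DNA damage or other stress stabilises p53, it binds response elements near its target genes, and their products halt the cell cycle, favour repair or start apoptosis. Several of the targets are also driven by other stress-activated and growth-related factors, and Cdkn1a and Btg2 in particular answer to many inputs in liver.

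The libraries held 15449716 to 39986531 reads on genes, with a median of 28262376. Of 10 hepatocyte markers, none was at 0 in every rat of any vehicle or highest-dose group, and their sum in vehicle rats was 204629 to 389833 CPM (counts scaled to library size with TMM factors), scaled within each table. The library of rat 2 at 1000 mkd in experiment A stood apart: its TMM factor, 1.91, was the highest of all rats, and its summed hepatocyte markers, 85374 CPM, were the lowest of its group, where the other 4 rats had 142766 to 260396 CPM. For the change at 1000 mkd, values without this rat are given for Phlda3, Aen and Zmat3, and not for the other members. The number of called members is given with and without it.

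Promoter sequences were looked up for the members because several of them changed together. RefSeq (GRCr8) gave a sequence for 8 of the 10 genes; Bax and Zmat3 were not matched. The 250 bases before the annotated start were searched on both strands for the p53 half-site consensus, of 10 bases, and for the cyclic AMP response element TGACGTCA, the site of the ATF and CREB family, and no promoter of a member held both. The 5 promoters with a match follow in lower case with the match in capitals, each read 5′ to 3′ on its gene's strand.

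Cdkn1a: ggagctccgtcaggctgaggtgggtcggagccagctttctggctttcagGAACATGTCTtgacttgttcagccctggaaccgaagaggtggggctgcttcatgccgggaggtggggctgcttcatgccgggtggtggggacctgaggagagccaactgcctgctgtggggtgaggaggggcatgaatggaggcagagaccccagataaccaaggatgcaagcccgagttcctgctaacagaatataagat

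Ccng1: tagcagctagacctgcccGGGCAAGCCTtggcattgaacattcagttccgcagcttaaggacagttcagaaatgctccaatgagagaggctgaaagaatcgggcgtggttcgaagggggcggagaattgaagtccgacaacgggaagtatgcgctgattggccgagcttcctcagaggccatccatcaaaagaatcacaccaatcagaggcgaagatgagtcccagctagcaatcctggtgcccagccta

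Aen: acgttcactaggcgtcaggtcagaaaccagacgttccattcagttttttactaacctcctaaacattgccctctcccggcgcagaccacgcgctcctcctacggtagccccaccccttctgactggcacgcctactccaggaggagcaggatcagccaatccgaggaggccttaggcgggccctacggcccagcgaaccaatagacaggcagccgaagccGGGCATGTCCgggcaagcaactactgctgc

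Btg2: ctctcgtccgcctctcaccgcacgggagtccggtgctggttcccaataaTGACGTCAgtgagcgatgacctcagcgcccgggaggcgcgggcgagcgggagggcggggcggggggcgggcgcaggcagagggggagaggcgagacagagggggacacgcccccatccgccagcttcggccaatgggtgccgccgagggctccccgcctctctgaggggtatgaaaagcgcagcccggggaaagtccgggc

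Plk2: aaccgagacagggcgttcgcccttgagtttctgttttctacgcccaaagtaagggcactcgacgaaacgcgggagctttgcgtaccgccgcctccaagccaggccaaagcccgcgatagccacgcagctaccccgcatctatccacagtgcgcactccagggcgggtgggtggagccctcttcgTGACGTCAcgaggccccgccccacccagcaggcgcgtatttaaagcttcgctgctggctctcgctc

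The p53 half-site lay 201 to 192 bases before the start of Cdkn1a (chr20:7150682-7150931, plus strand), 232 to 223 bases before that of Ccng1 (chr10:25684877-25685126, minus strand) and 30 to 21 bases before that of Aen (chr1:142224283-142224532, plus strand). A half-site was present in 6.64% of the 33469 reference promoters, so its presence in 3 members is a description. Whether p53 binds at these matches was not tested. The TGACGTCA element lay 201 to 194 bases before the start of Btg2 (chr13:48087691-48087940, minus strand) and 66 to 59 bases before that of Plk2 (chr2:43702286-43702535, plus strand), and was present in 1.59% of all promoters. Neither set of letters was in the windows of Mdm2, Phlda3 or Gdf15.

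In experiment A, the members were called at 1000 mkd and not at lower doses. Each dose was compared with the vehicle group of its table by edgeR's quasi-likelihood test, and a call required both a fold change of at least 1.5 in either direction and a p of at most 0.05 after Benjamini-Hochberg adjustment. At 1000 mkd, 7 of the 10 members were called higher (Mdm2, Ccng1, Bax, Phlda3, Gdf15, Plk2 and Zmat3), against 14% of all genes tested. By adjusted p alone there were 8 (Aen in addition), against 16.5% of all genes. All 10 log2 fold changes were positive, with a median of 0.91 beside 0.00 over all genes. All 5 treated rats lay above all 5 vehicle rats for 6 of 10 members, against 9.01% of all genes tested.

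**Figure D1:**
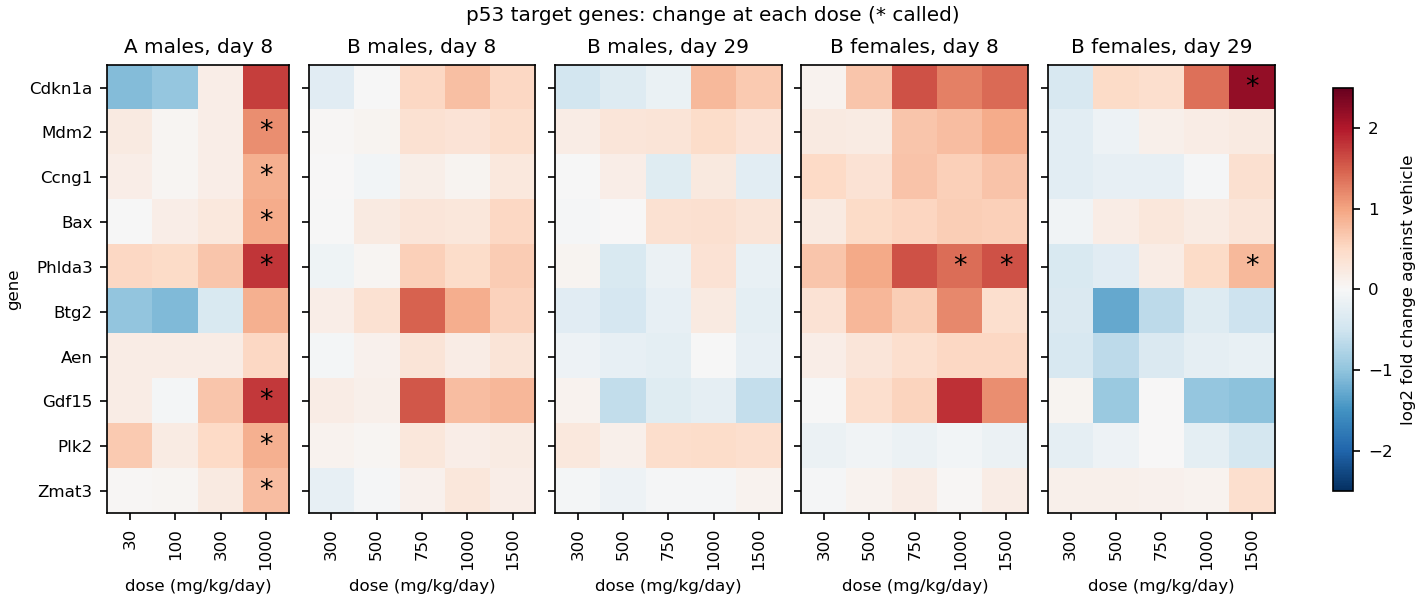
Log2 fold change of each member (rows) at each acetamide dose against its own vehicle group (columns, mg/kg/day) in the 5 tables, from edgeR fits with 5 rats per group; red is higher, blue is lower and an asterisk marks a call. The asterisks number 7 at 1000 mkd in experiment A, 1 each at 1000 and 1500 mkd in experiment B females on day 8, and 2 at 1500 mkd in females on day 29.

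The regulators that feed back on p53 were among those that rose. Mdm2, the ubiquitin ligase that degrades p53, measured 23.1, 32.3, 21.2, 25.2 and 25.0 CPM in the 5 vehicle rats and 42.3, 91.2, 42.7, 49.0 and 60.0 CPM in the 5 rats at 1000 mkd. The groups did not overlap, and the fold change was 2.25 (log2 1.17, SE 0.18, adjusted p = 0.000158). Ccng1, which encodes cyclin G1, a partner of Mdm2 and of protein phosphatase 2A, went from 31.7 to 50.5 CPM in vehicle rats to 61.1 to 108.7 CPM in treated rats (log2 fold change 0.88, SE 0.17, adjusted p = 0.000842). Its treated rats were likewise all above its vehicle rats.

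Phlda3, which encodes an inhibitor of the survival kinase Akt, showed the largest called change. Vehicle rats had 10.1, 16.0, 13.5, 10.7 and 13.5 CPM and treated rats 27.7, 81.5, 29.1, 42.6 and 40.2 CPM, a 3.47-fold difference (log2 1.79, SE 0.29, adjusted p = 0.000241). The lowest treated rat was above the highest vehicle rat. Without treated rat 2 the log2 fold change was 1.46 (adjusted p = 0.000873).

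Of the genes with apoptotic roles, Bax rose and Aen changed less. Bax, the pore-forming protein of the mitochondrial outer membrane, had 6.7, 6.5, 8.1, 7.2 and 5.4 CPM in vehicle rats and 11.0, 18.2, 11.4, 12.4 and 11.2 CPM at 1000 mkd, without overlap (log2 fold change 0.93, SE 0.17, adjusted p = 0.000595). Aen, an apoptosis-enhancing nuclease, had 18.4 to 30.0 CPM in vehicle rats and 24.3, 59.7, 32.7, 32.8 and 36.0 CPM in treated rats. Its log2 fold change of 0.51 (SE 0.18, adjusted p = 0.0383) was below the fold criterion, and fell to 0.28 (adjusted p = 0.209) without treated rat 2, but reached 0.63 (adjusted p = 0.00977) without treated rat 1, which then met both criteria.

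Gdf15, a secreted cytokine of the TGF-β family made by stressed cells, had 1.5, 1.9, 2.2, 1.4 and 1.4 CPM in vehicle rats and 5.4, 9.4, 3.5, 5.4 and 4.5 CPM at 1000 mkd. All treated rats were above all vehicle rats, and the fold change was 3.43 (log2 1.78, SE 0.36, adjusted p = 0.00105). Zmat3, an RNA-binding zinc finger protein, had 6.3 to 9.2 CPM in vehicle rats and 11.5, 20.8, 9.6, 10.0 and 12.8 CPM in treated rats, again without overlap (log2 fold change 0.77, SE 0.19, adjusted p = 0.00452). Its call was lost without treated rat 2, when the log2 fold change was 0.53 (adjusted p = 0.0256), under the fold criterion.

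Plk2, a polo-like kinase, had 53.9, 50.6, 67.1, 27.8 and 48.2 CPM in vehicle rats and 64.9, 101.1, 84.2, 129.3 and 81.7 CPM at 1000 mkd (log2 fold change 0.90, SE 0.20, adjusted p = 0.00215). Treated rat 1 lay below the highest vehicle rat, so the groups overlapped. At 30 mkd all 5 rats, at 68.3 to 103.8 CPM, were above all vehicle rats, as for 0.168% of all genes, but the log2 fold change of 0.66 (SE 0.20) was not called (adjusted p = 1.00).

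Cdkn1a and Btg2 were not called, and varied widely among vehicle rats. Cdkn1a encodes p21, the inhibitor of cyclin-dependent kinases through which p53 halts the cell cycle. It measured 2.1, 4.1, 7.2, 108.9 and 51.3 CPM in vehicle rats, and 61.7, 191.2, 69.2, 141.8 and 115.7 CPM at 1000 mkd. Vehicle rat 4 thus lay within the range of the treated rats and vehicle rat 5 just below it, while the other 3 were far lower. The log2 fold change of 1.74 had an SE of 1.02 (adjusted p = 0.202). Btg2, an antiproliferative co-regulator of mRNA deadenylation, had 15.3, 18.9, 26.0, 144.1 and 38.9 CPM in vehicle rats and 73.3, 158.1, 58.8, 87.2 and 71.3 CPM in treated rats (log2 fold change 0.88, SE 0.45, adjusted p = 0.138). Without vehicle rat 4 the Btg2 value was 1.85 (adjusted p = 0.00107), which met both criteria, and that of Cdkn1a 2.83 (adjusted p = 0.0590).

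**Figure D2:**
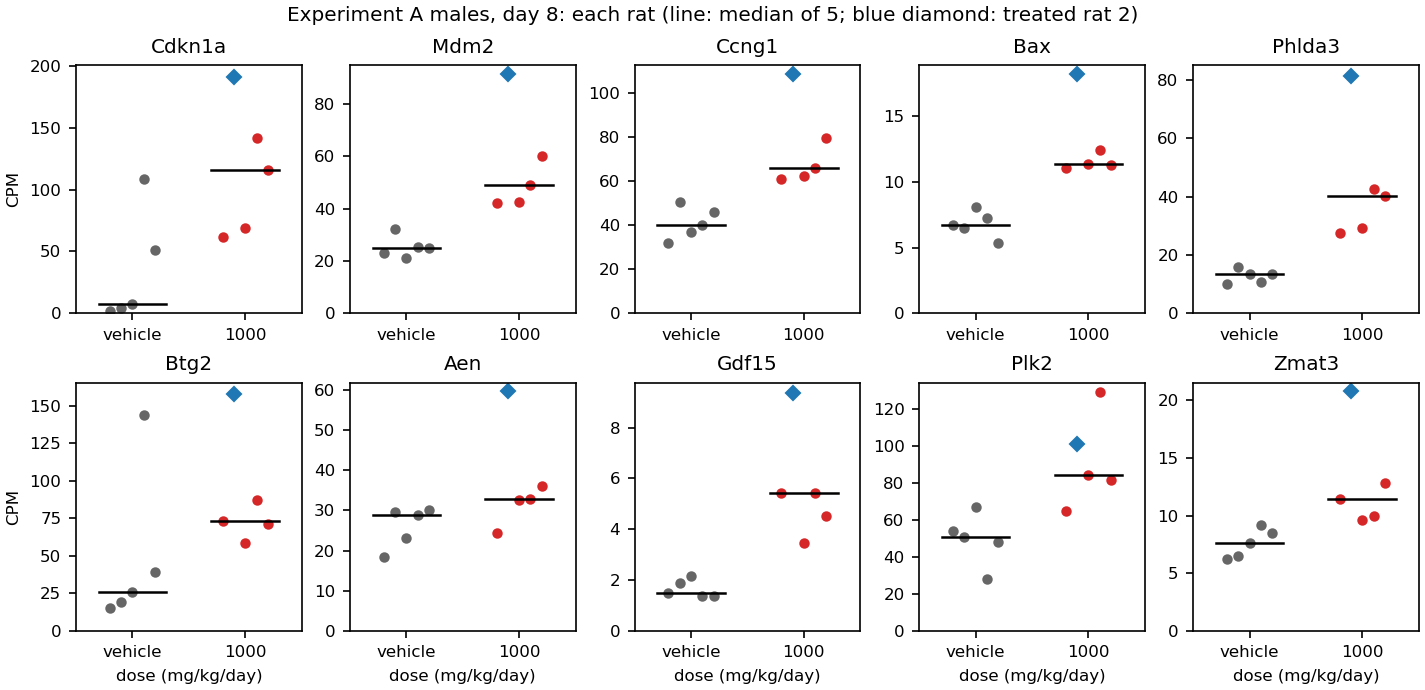
CPM of each member (10 panels, linear axes from 0) in each vehicle rat (grey) and each rat at 1000 mg/kg/day (red, with rat 2 as a blue diamond) of experiment A; lines are medians of 5 rats. The blue diamond is the highest point of its group in 9 of the 10 panels, and the 1 exception is Plk2.

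Treated rat 2 was the highest of its group for 9 of the 10 members. Leaving out each of the 10 rats of this comparison in turn gave 6 to 8 called members, with 6 when treated rat 2 was left out. Its high TMM factor and low summed hepatocyte markers moved with these high values, and their part in the result was not tested.

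At 30, 100 and 300 mkd in experiment A, edgeR called 0 members higher or lower, and DESeq2 also called 0. The share of all genes called higher was 0% at each of these doses. Members with an unadjusted p under 0.05 numbered 2, 1 and 2 at these doses in ascending order, against 2.86%, 2.05% and 1.93% of all genes. The 2 members of the 300 mkd group were Phlda3 (log2 fold change 0.68, SE 0.29, adjusted p = 1.00) and Plk2 (0.49, SE 0.20, adjusted p = 1.00). The 5 rats at 300 mkd had 13.3, 24.7, 28.4, 20.1 and 16.1 CPM of Phlda3, and 4 of them were above the highest vehicle rat.

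Markers of other cell types also moved at 1000 mkd in experiment A, where 14% of all genes were called higher. The share called lower is not given here, so the counts of lower markers have no background beside them. By the same criteria, 9 of 9 tested T and NK cell markers, 6 of 9 macrophage markers, 3 of 6 endothelial markers and 2 of 8 stellate cell markers were higher, while 3 of 10 hepatocyte markers, 2 of 3 neutrophil markers and 2 of 5 erythroid markers were lower. Without treated rat 2 the endothelial count was 1 and the stellate count 0, which was also 0 without vehicle rat 2 or 3 and 1 without vehicle rat 4. The hepatocyte count was 6 without treated rat 1 and 5 without treated rat 3, and the neutrophil count 0 without vehicle rat 4 and 1 without treated rat 2, 4 or 5 or vehicle rat 2. Summed T and NK cell markers ranged from 25.8 to 31.6 CPM in vehicle rats and from 44.4 to 80.8 CPM in treated rats. Summed hepatocyte markers ranged from 264491 to 353924 CPM in vehicle rats and from 85374 to 260396 CPM in treated rats. No T and NK cell or hepatocyte marker was at 0 in every rat of either group. In each group 1 stellate cell marker and 1 erythroid marker were at 0 in every rat. In whole liver, fewer cells of a type and less RNA per cell cannot be told apart, and the part of these shifts in the members' values was not tested.

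In experiment B males on day 8, the members lay slightly above vehicle at the higher doses and none was called. All 10 log2 fold changes were positive at 750, 1000 and 1500 mkd, with a median of 0.47 at 1500 mkd beside 0.00 over all genes. edgeR called 0 members at any of the 5 doses, against 0% of all genes higher at 300, 500, 750 and 1000 mkd and 0.142% at 1500 mkd. At an unadjusted p under 0.05 there were 0, 0, 4, 1 and 4 members at 300, 500, 750, 1000 and 1500 mkd, against 1.41%, 3.32%, 7.65%, 4.7% and 12.6% of all genes. DESeq2 called 1 member at 1500 mkd, Phlda3, and 0 at the other doses.

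Phlda3 was the member nearest to a call in these males. It measured 20.1, 13.4, 14.5, 18.9 and 12.7 CPM in vehicle rats and 29.4, 29.0, 25.4, 22.4 and 17.9 CPM at 1500 mkd. Only treated rat 5 fell within the vehicle range. The log2 fold change was 0.64 (SE 0.16, adjusted p = 0.0721), 0.65 by DESeq2 (adjusted p = 0.0168), and 0.74 without rat 5 (adjusted p = 0.0380), which was then called. Rat 5 was the lowest of its group for 8 of the 10 members. At 750 mkd all 5 rats, at 20.2 to 30.1 CPM, were above all vehicle rats for Phlda3 (log2 fold change 0.61, SE 0.16, adjusted p = 0.435), and at 1000 mkd the same held for Bax, at 8.1 to 10.0 CPM against 6.6 to 7.8 CPM (log2 fold change 0.29, SE 0.16, adjusted p = 0.972). Such groups without overlap were found for 0.805% and 0.46% of all genes at these doses.

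After 28 days, males of experiment B showed no call for any member at any dose. edgeR and DESeq2 each called 0 members at 300, 500, 750, 1000 and 1500 mkd, where 0%, 0%, 0.248%, 0.949% and 3.16% of all genes were called higher. At an unadjusted p under 0.05 there were 0, 0, 3, 2 and 2 members, against 5.66%, 13.7%, 22.9%, 26.2% and 27% of all genes. At 300, 500, 750 and 1000 mkd, 4, 4, 3 and 7 of the 10 log2 fold changes were positive. Their medians were −0.02, −0.17, −0.16 and 0.29, beside −0.009, 0.035, 0.049 and 0.045 over all genes. At 1500 mkd, 5 of the 10 log2 fold changes were positive and the median was −0.05, beside 0.07 over all genes.

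Single members of these males overlapped their vehicle group. Cdkn1a had 11.7, 17.9, 32.1, 34.0 and 35.6 CPM in vehicle rats and 30.4, 11.9, 60.8, 55.1 and 47.6 CPM at 1500 mkd (log2 fold change 0.65, SE 0.50, adjusted p = 0.410). Phlda3 had 16.7, 16.3, 22.2, 23.7 and 21.8 CPM in vehicle rats and 16.7, 17.6, 14.5, 21.0 and 18.2 CPM at 1500 mkd. The Phlda3 groups overlapped, with a log2 fold change of −0.19 (SE 0.19, adjusted p = 0.530). Mdm2 came to 0.33 (SE 0.15, adjusted p = 0.146) and Ccng1 to −0.27 (SE 0.15, adjusted p = 0.235) on the same scale.

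**Figure D3:**
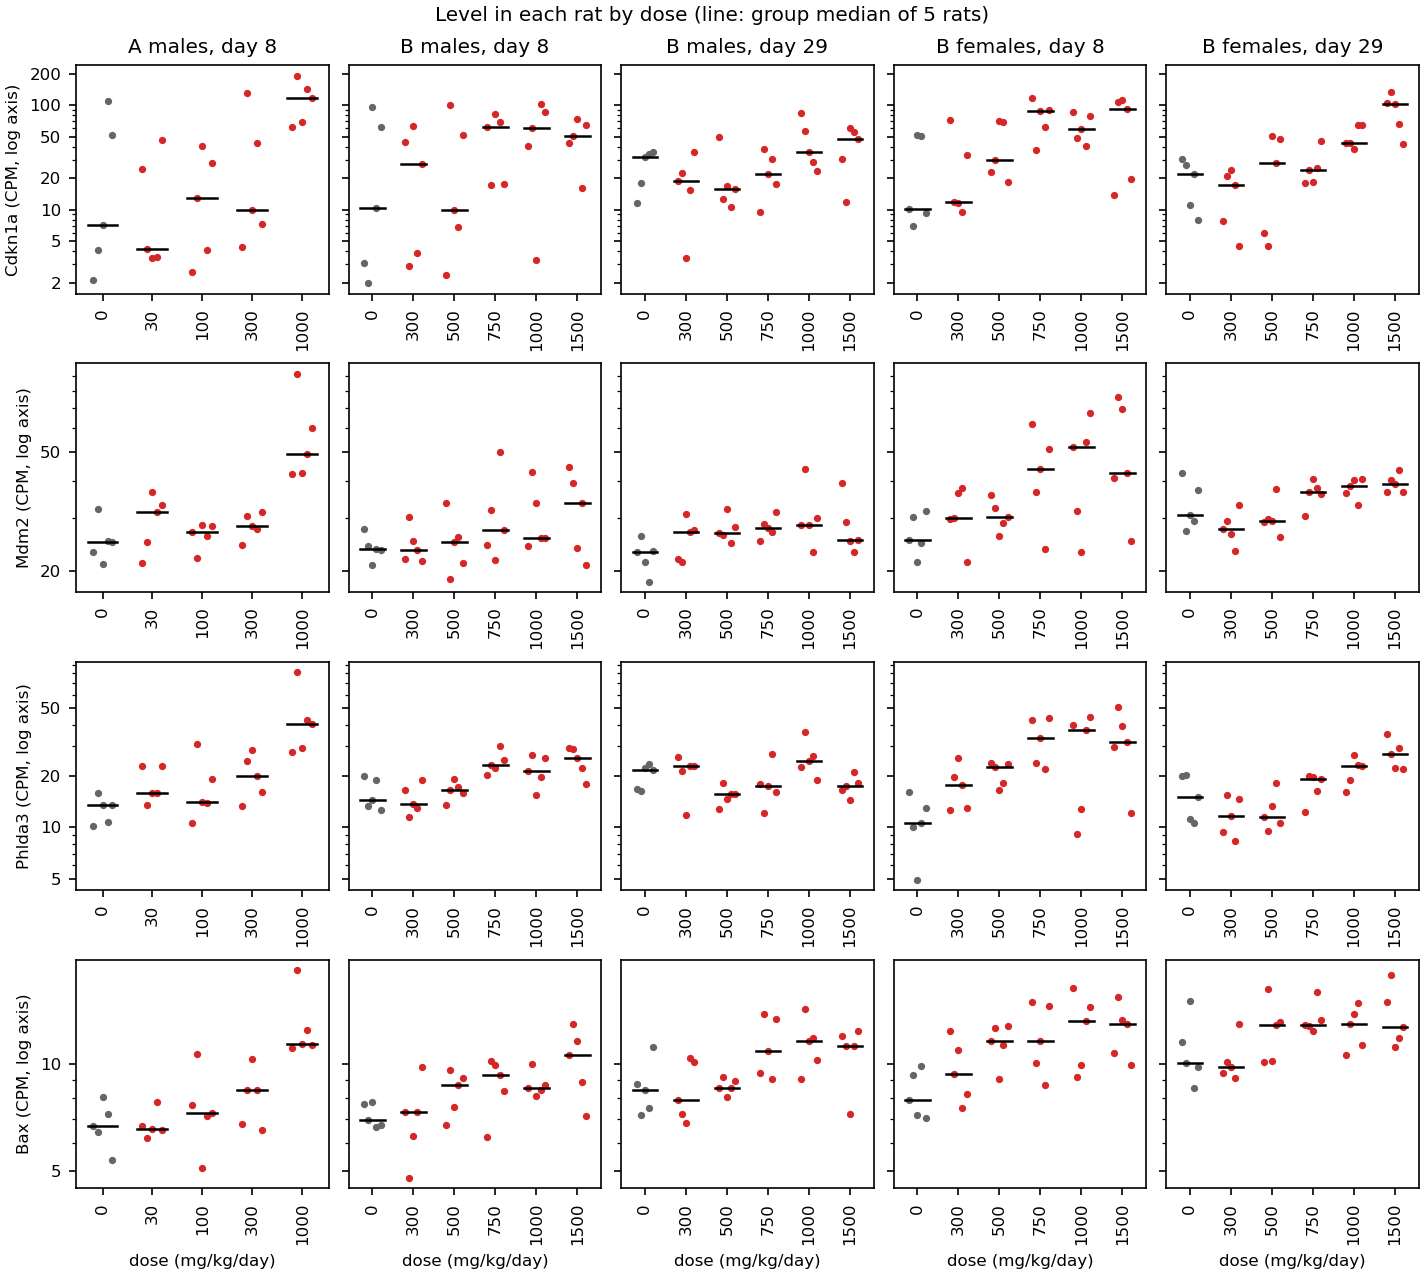
CPM (log axes) of Cdkn1a, Mdm2, Phlda3 and Bax (rows) in each rat, by acetamide dose in mg/kg/day and by table (columns); grey points are vehicle rats, red points treated rats and lines medians of 5 rats. Cdkn1a in vehicle rats spans 2.1 to 108.9 CPM in experiment A, whereas in females on day 29 its 5 rats at 1500 mkd (42.6 to 134.5 CPM) are all above the vehicle rats (7.9 to 30.3 CPM).

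In experiment B females on day 8, Phlda3 was the only member called, at the 2 highest doses. It measured 16.2, 10.1, 4.9, 10.5 and 12.9 CPM in vehicle rats, 39.6, 9.1, 12.9, 37.3 and 44.4 CPM at 1000 mkd and 29.5, 51.1, 39.3, 31.5 and 12.2 CPM at 1500 mkd. Rats 2 and 3 at 1000 mkd and rat 5 at 1500 mkd stayed in the vehicle range. The log2 fold change was 1.39 at 1000 mkd (SE 0.37, adjusted p = 0.0497) and 1.58 at 1500 mkd (SE 0.37, adjusted p = 0.0398), so 1 of 10 members was called at each dose, against 1.03% and 0.522% of all genes called higher.

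These Phlda3 calls were close to the threshold. At 1500 mkd the call was lost when any of the 5 vehicle rats or treated rat 2, 3 or 4 was left out (log2 fold change 1.36 to 1.75, adjusted p = 0.0716 to 0.143), and kept without treated rat 1 (adjusted p = 0.0213) or treated rat 5 (adjusted p = 0.0139). With only the vehicle and 1500 mkd groups in the fit it was 1.59 (adjusted p = 0.0801). At 750 mkd, where all 5 rats (21.9 to 43.8 CPM) were above all vehicle rats, the log2 fold change was 1.60 (SE 0.37, adjusted p = 0.0609), and at 500 mkd, where they (16.5 to 23.8 CPM) also were, it was 0.94 (SE 0.37, adjusted p = 0.635). All 5 treated rats were above all vehicle rats for 1.9% and 0.565% of all genes at these doses.

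At 300, 500 and 750 mkd in these females edgeR called 0 members, against 0.0087%, 0.0087% and 0.0087% of all genes called higher, which is 1 gene at each dose. There were 0, 3 and 6 members at an unadjusted p under 0.05, against 2.57%, 6.45% and 14% of all genes, and DESeq2 called 0, 0 and 1 of them. At 1000 and at 1500 mkd 6 members had an unadjusted p under 0.05, against 13.5% and 14.7% of all genes, 9 of 10 log2 fold changes were positive, and the medians were 0.69 and 0.65 beside 0.01 and 0.00 over all genes. DESeq2 called 2 members at each of these doses.

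Mdm2 in these females measured 25.4, 30.3, 21.5, 24.8 and 31.6 CPM with vehicle and 40.8, 76.3, 69.4, 42.4 and 25.3 CPM at 1500 mkd. The 4 rats other than rat 5 were above every vehicle rat. The log2 fold change of 0.93 (SE 0.27) was not called by edgeR (adjusted p = 0.0831), was called by DESeq2 (0.92, adjusted p = 0.0290), and was called by edgeR without treated rat 1 (1.02, adjusted p = 0.0419) or rat 5 (1.12, adjusted p = 0.0254). Bax, at 7.1 to 9.9 CPM with vehicle and 9.9 to 15.3 CPM at 1500 mkd, with all treated rats above all vehicle rats (1.65% of all genes), gave 0.59 (SE 0.17, adjusted p = 0.0873), and was likewise called without treated rat 1 (0.66, adjusted p = 0.0440) or rat 5 (0.68, adjusted p = 0.0405). Aen gave 0.51 (SE 0.15, adjusted p = 0.0831), Ccng1 0.71 (SE 0.27, adjusted p = 0.196), Cdkn1a 1.41 (SE 0.63, adjusted p = 0.293) and Gdf15 1.16 (SE 0.64, adjusted p = 0.412), none of them called.

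In experiment B females on day 29, Cdkn1a rose by 2.20 and Phlda3 by 0.82 on the log2 scale at 1500 mkd, and no other member was called. These 2 of 10 members stand against 9.55% of all genes called higher, and 4 members had an unadjusted p under 0.05, against 32.7% of all genes. Of the 10 log2 fold changes 6 were positive, with a median of 0.27 beside 0.00 over all genes. Cdkn1a measured 30.3, 26.7, 11.1, 22.0 and 7.9 CPM in vehicle rats and 104.3, 134.5, 103.4, 66.3 and 42.6 CPM at 1500 mkd, without overlap (log2 fold change 2.20, SE 0.53, adjusted p = 0.00485). Groups without overlap in this direction were found for 2 members and 3.51% of all genes. The call was kept without any single rat, with values of 2.01 to 2.43.

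Phlda3 in females on day 29 measured 20.0, 20.2, 11.1, 10.6 and 15.0 CPM in vehicle rats and 35.3, 26.8, 22.3, 29.3 and 22.0 CPM at 1500 mkd. All treated rats were above all vehicle rats, and the log2 fold change was 0.82 (SE 0.21, adjusted p = 0.00766). With only these 2 groups in the fit it was 0.81 (adjusted p = 0.0522), no longer called. Zmat3 gave 0.42 (SE 0.17, adjusted p = 0.0807) and was called without vehicle rat 2 (0.60, adjusted p = 0.0115), whereas Ccng1 gave 0.40 (SE 0.18, adjusted p = 0.124).

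At the lower doses of this table edgeR called 0 members at 300, 500, 750 and 1000 mkd, against 0%, 0.0349%, 0.166% and 1.23% of all genes called higher. There were 2, 1, 1 and 2 members at an unadjusted p under 0.05, against 3.49%, 11.4%, 15.6% and 19.4% of all genes, and DESeq2 called 0, 1, 0 and 0. At these doses 2, 3, 7 and 5 of the 10 log2 fold changes were positive. Their medians were −0.26, −0.17, 0.06 and 0.03, beside −0.003, −0.006, 0.000 and −0.013 over all genes. Cdkn1a at 1000 mkd had 43.7, 43.5, 37.7, 64.7 and 63.9 CPM, all above the vehicle rats (2.79% of all genes), with a log2 fold change of 1.37 (SE 0.52, adjusted p = 0.142). At 500 mkd all 5 rats, at 17.2 to 27.2 CPM, were below all vehicle rats (0.358% of all genes) for Aen, at 27.8 to 53.7 CPM (log2 fold change −0.64, SE 0.17, adjusted p = 0.140).

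Cell type markers moved in these females too, where 9.55% of all genes were called higher at 1500 mkd. The share called lower is not given here, so the counts of lower markers cannot be set against it. At 1500 mkd on day 29, 4 of 9 macrophage markers and 3 of 8 tested T and NK cell markers were called higher, as were 2 of 6 endothelial, 2 of 8 stellate cell, 1 of 5 cholangiocyte and 1 of 3 neutrophil markers. Of 10 hepatocyte markers 1 was called higher and 2 lower, and 3 of 5 erythroid markers were lower. The macrophage count was 2 and the T and NK cell count 1 without treated rat 2 or 3 or vehicle rat 1, 4 or 5, and the T and NK cell count was 5 without vehicle rat 3. Without single rats the endothelial count was 1 to 3, the stellate count 1 to 3, the cholangiocyte count 0 to 2, the neutrophil count 0 to 1, the count of lower hepatocyte markers 1 to 3 and that of lower erythroid markers 1 to 3. Summed hepatocyte markers ranged from 204629 to 389833 CPM in vehicle rats and from 100191 to 203654 CPM in treated rats. The part of this shift in the values of Cdkn1a and Phlda3 was not tested.

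A linear dose term over all rats of a table used every dose at once, with a gene called at an adjusted p of at most 0.05. Slopes are given on the log2 scale per 1000 mkd. In experiment A 10 of 10 members had a positive slope that was called, against 23.5% of all genes called with a positive slope. The steepest were Cdkn1a at 2.33 (SE 0.74, adjusted p = 0.0121), Gdf15 at 1.78 (SE 0.27, adjusted p = 8.87e-06) and Phlda3 at 1.53 (SE 0.22, adjusted p = 6.22e-06), and the flattest was Aen at 0.41 (SE 0.15, adjusted p = 0.0233). Without the 1000 mkd group 0 members were called, so the slopes of experiment A rest on that group. Without rat 2 of every group 6 were called: the calls of Cdkn1a (1.82, adjusted p = 0.0705), Btg2 (0.99, adjusted p = 0.0706), Aen (0.18, adjusted p = 0.323) and Plk2 (0.57, adjusted p = 0.0565) were lost. That of Plk2 was also lost without rat 4 of every group (0.40, adjusted p = 0.0760).

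In experiment B, males on day 8 had 2 members called with a positive slope, against 1.98% of all genes. Phlda3 rose by 0.53 per 1000 mkd (SE 0.11, adjusted p = 0.00638) and Bax by 0.35 (SE 0.09, adjusted p = 0.0302). Males on day 29 had 1, Bax at 0.31 (SE 0.10, adjusted p = 0.0250), against 13.9% of all genes. The Phlda3 slope of males was 0.00 on day 29 (SE 0.14, adjusted p = 0.992).

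Females on day 8 had 4 members called, against 3.76% of all genes: Phlda3 at 1.02 (SE 0.24, adjusted p = 0.0156), Mdm2 at 0.67 (SE 0.15, adjusted p = 0.0143), Bax at 0.39 (SE 0.11, adjusted p = 0.0319) and Aen at 0.36 (SE 0.09, adjusted p = 0.0176). Females on day 29 had 5, against 15.4% of all genes: Cdkn1a at 1.63 (SE 0.28, adjusted p = 9.84e-05), Phlda3 at 0.71 (SE 0.13, adjusted p = 0.000229), Ccng1 at 0.31 (SE 0.11, adjusted p = 0.0389), Mdm2 at 0.26 (SE 0.08, adjusted p = 0.0105) and Bax at 0.24 (SE 0.09, adjusted p = 0.0467). No member was called with a negative slope in any table. As in experiment A, no slope was called without the highest dose group in males on day 8 or in females on day 29, so the slopes of these tables rest on that group. Slopes were still called without it in females on day 8 and in males on day 29.

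Bax was thus the member whose slope was called in all 5 tables, which were separate sets of rats. Its call was lost without the highest dose group in experiment A, in males on day 8 and in females on day 29. Outside experiment A it was also lost in some other fits over fewer rats. Leaving out the rat of 1 replicate number from every group ended it without number 1, 2, 3 or 4 in males on day 8 (0.25 to 0.37, adjusted p = 0.0963 to 0.217), without number 1, 2 or 4 in males on day 29 (0.20 to 0.27, adjusted p = 0.111 to 0.173), without number 2, 3, 4 or 5 in females on day 8 (0.38 to 0.39, adjusted p = 0.0598 to 0.165) and without number 1, 2, 4 or 5 in females on day 29 (0.17 to 0.25, adjusted p = 0.0866 to 0.253).

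Other slopes of experiment B also lost their call in this way, while keeping their sign. On day 8 the Phlda3 slope of males was 0.43 without number 2 (adjusted p = 0.0752), and that of females 0.98 to 0.99 without number 2, 3 or 4 (adjusted p = 0.0773 to 0.0850). In females on day 8 the Mdm2 slope was lost without number 2, 3 or 4 (0.62 to 0.69, adjusted p = 0.0531 to 0.115) and that of Aen without number 1, 2 or 3 (0.29 to 0.34, adjusted p = 0.0582 to 0.147). In females on day 29 the Mdm2 slope was lost without number 2, 3 or 4 (0.21 to 0.23, adjusted p = 0.0563 to 0.103) and that of Ccng1 without number 2, 3, 4 or 5 (0.23 to 0.29, adjusted p = 0.0872 to 0.187). The Cdkn1a and Phlda3 slopes of females on day 29 were called whichever number was left out, but neither was called without the highest dose group.

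Differences between experiments, sexes and durations were tested as interaction terms, called at an adjusted p of at most 0.05. At 1000 mkd for 7 days, the log2 fold change of Phlda3 was larger in experiment A than in experiment B males by 1.33 (SE 0.33, adjusted p = 0.0130), and it was 1 of 10 members called, against 7.48% of all genes. It was not called without replicate number 4 (1.2, adjusted p = 0.173) or 5 (1.51, adjusted p = 0.0521). The corresponding differences were 0.82 for Mdm2 (SE 0.28, adjusted p = 0.0638), 0.80 for Ccng1 (SE 0.30, adjusted p = 0.0898) and 0.63 for Bax (SE 0.23, adjusted p = 0.0823). For Mdm2 the difference was called by DESeq2 (0.82, adjusted p = 0.0466). The experiments differed in strain, supplier and processing, which cannot be told apart.

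At 1500 mkd edgeR called 0 members for females against males on day 8, 0 for females against males on day 29, 0 for day 29 against day 8 in males and 0 for day 29 against day 8 in females. The shares of all genes called were 0%, 0.0688%, 0% and 0.00858%. Over these 4 comparisons 10 of 40 member tests had an unadjusted p under 0.05, against 8.54% of all gene tests, and DESeq2 called 1 member, Phlda3, for the sexes on day 29. That difference was 1.04 higher in females (SE 0.29, adjusted p = 0.0948) and 1.04 by DESeq2 (adjusted p = 0.0474), and those of Cdkn1a and Ccng1 were 1.58 (SE 0.74, adjusted p = 0.269) and 0.69 (SE 0.24, adjusted p = 0.142). A call of Cdkn1a in females on day 29 and none in males is therefore not shown to be a difference between the sexes.

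Without acetamide, Plk2 was the member that differed most clearly between the sexes. Among vehicle rats of experiment B on day 8 it measured 52.3, 44.7, 33.1, 67.2 and 50.9 CPM in males and 109.4, 95.3, 147.6, 112.7 and 143.8 CPM in females, scaled within each table. On day 29 it measured 51.4, 73.6, 44.7, 72.1 and 47.0 CPM in males and 109.8, 145.7, 104.1, 194.3 and 230.8 CPM in females. All females were above all males on both days, and the share of all genes separated in this way was not counted. On a scale common to these vehicle rats, the lowest female had 82.1 CPM on day 8 and 92.9 CPM on day 29. The highest male had 65.5 CPM on day 8 and 72.5 CPM on day 29. In a fit over the 20 vehicle rats females were higher by 1.12 (log2, SE 0.23, adjusted p = 0.00245) on day 8 and by 1.33 (SE 0.23, adjusted p = 0.000444) on day 29.

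Of the 10 members 1 was called between the sexes on day 8, against 7.98% of all genes in either direction, and 2 on day 29, against 11.8%. The other was Gdf15, higher in females on day 29 by 2.11 (SE 0.65, adjusted p = 0.0308). Its female vehicle rats had 3.1, 4.7, 3.4, 52.8 and 12.9 CPM and its males 1.5, 6.8, 4.2, 1.9 and 2.2 CPM, so female rats 4 and 5 alone lay above every male. Without replicate number 4 the Gdf15 difference was 0.62 (adjusted p = 0.431), and without number 5 it was 2.05 (adjusted p = 0.0955). Mdm2 was higher in females on day 29 by 0.46 (SE 0.14, adjusted p = 0.0256), under the fold criterion, which it met without number 2 (0.60, adjusted p = 0.0185). Phlda3 was lower in females on day 8 by edgeR's estimate of −0.72 (SE 0.25, adjusted p = 0.0700), called only by DESeq2 (−0.72, adjusted p = 0.0402).

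**Figure D4:**
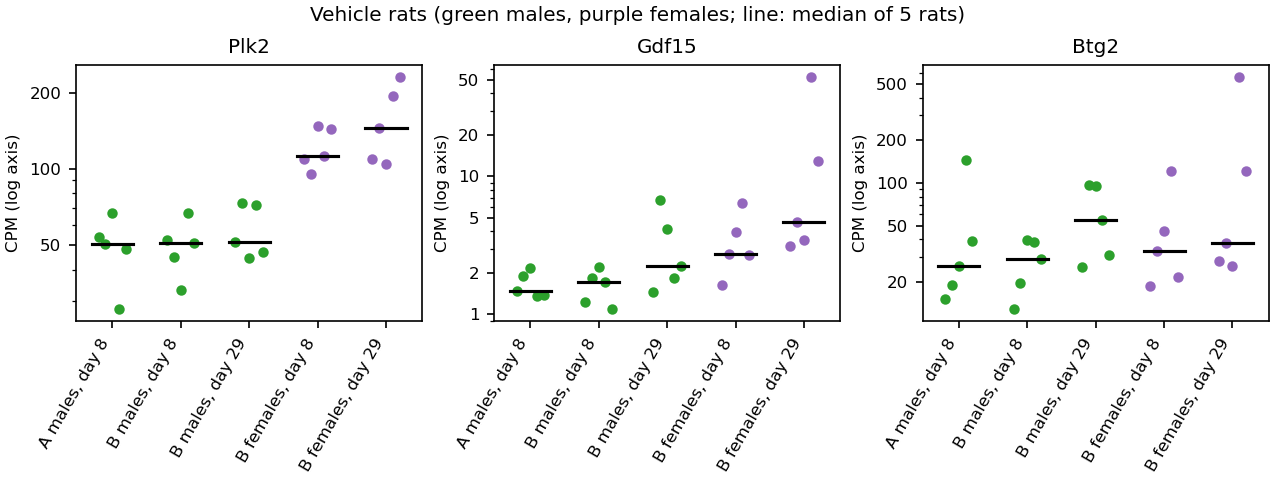
CPM (log axes) of Plk2, Gdf15 and Btg2 in each vehicle rat of the 5 tables, scaled within each table; green points are males, purple points females and lines medians of 5 rats. All 10 females are above all experiment B males for Plk2, and 1 female on day 29 stands at 52.8 CPM for Gdf15 and 559.2 CPM for Btg2.

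Between vehicle rats of day 29 and day 8, edgeR called 0 members in males and 0 in females, against 0.0356% and 0.784% of all genes. Of these 20 member tests 6 had an unadjusted p under 0.05, all in females, against 15% of all gene tests, and DESeq2 called 1, Gdf15 in females (log2 difference 2.23, adjusted p = 0.0256), which edgeR did not call (2.23, SE 0.66, adjusted p = 0.0858). Age, days of gavage and processing cannot be told apart in this comparison.

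The members fell into steady and variable genes among vehicle rats. The coefficient of variation over 5 rats was 9.90% to 18.9% across the 5 tables for Mdm2 and 7.76% to 22.4% for Bax. Aen, Zmat3, Ccng1, Plk2 and Phlda3 were at 12.5% to 37.8%. It was 41.0% to 133% for Cdkn1a, 41.8% to 149% for Btg2 and 21.5% to 138% for Gdf15. The highest vehicle rat exceeded the lowest 51.8-fold for Cdkn1a in 1 table, but at most 1.56-fold for Mdm2.

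The rat-to-rat variation was compared between genes as the deviation of each rat's log2 CPM from its group mean, over all rats of the 29 groups, which share libraries and scaling; the correlations are descriptions without a test. Mdm2 and Ccng1 varied together, with Pearson's r of 0.71 and Spearman's rho of 0.68, an r of 0.70 without the 2 rats farthest from the median, and an r of 0.43 to 0.89 within the single tables. Among 11065 genes tested in all tables Ccng1 was the gene with the highest r with Mdm2. Phlda3 followed Mdm2 (r = 0.51, rho = 0.38, 0.46 without the 2 farthest) and Bax (r = 0.50, rho = 0.46, 0.47 without the 2 farthest), but its r with Mdm2 ranged from −0.18 to 0.83 between tables.

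Cdkn1a showed little correlation with Mdm2 (r = −0.10, rho = −0.17), and had its highest r with Slc45a3 (0.80), Tpst2 (0.78) and Tpm4 (0.76). With Slc45a3, a sugar transporter, rho was 0.76, r was 0.78 without the 2 farthest rats and r was 0.55 to 0.93 within tables. Btg2 had its highest r with the stress and immediate early genes Atf3 (0.91), Nr4a1 (0.88) and Ppp1r15a (0.88). For Atf3, a transcription factor of the ATF and CREB family, rho was 0.90, r without the 2 farthest rats was 0.89 and r within tables was 0.64 to 0.97. Gdf15 had its highest r with Jun (0.77), Btg2 (0.69) and Ppp1r15a (0.66).

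The same rats carried these high values. Female vehicle rat 4 of day 29, with 559.2 CPM of Btg2 and 52.8 CPM of Gdf15, had 320.1 CPM of Atf3, whereas vehicle rats 1, 2 and 3 of that group had 1.8, 1.4 and 1.2 CPM. Rat 1 at 750 mkd among males on day 8, with 168.8 CPM of Btg2 and 10.6 CPM of Gdf15, had 159.1 CPM of Atf3, and the other 4 rats of that group had 2.7 to 8.7 CPM. Of the remaining members, Ccng1 was closest to Zfp329 (0.73), Smarcad1 (0.73) and Smim15 (0.72), Bax to Cd99 (0.69), Kat2a (0.67) and Ssh3 (0.64), and Zmat3 to Peak1 (0.65), LOC100361083 (0.63) and N4bp1 (0.62). Phlda3 had its highest r with Mybl2 (0.52), Aen with Slc3a2 (0.56) and Plk2 with Rnd3 (0.54).

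**Figure D5:**
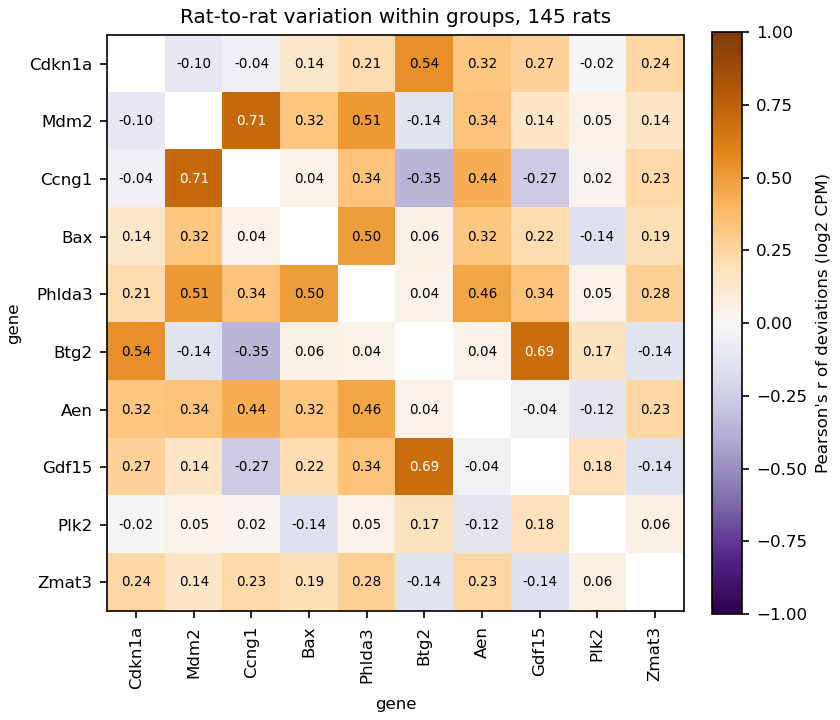
Pearson's r between members (rows and columns) of log2 CPM deviations from the group mean, over all rats of the 29 groups; brown is positive and purple negative, and each value is printed in its cell. Mdm2 with Ccng1 (0.71) and Btg2 with Gdf15 (0.69) are the 2 highest, while Cdkn1a with Mdm2 is −0.10 and Btg2 with Ccng1 −0.35.

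Because cell cycle genes rose with acetamide, each member was also set against Mki67, the gene of the proliferation antigen Ki-67, within dose groups. At the highest dose Mki67 was called higher in experiment A (log2 fold change 2.03, SE 0.49, adjusted p = 0.00368), in males on day 29 (3.47, SE 0.73, adjusted p = 0.00938) and in females on day 8 (2.05, SE 0.49, adjusted p = 0.0422) and day 29 (2.61, SE 0.35, adjusted p = 5.26e-05). In males on day 29 the Mki67 value rested on rat 3 at 1500 mkd, which had 243.4 CPM while its group mates had 3.1 to 14.1 CPM: without that rat it was 0.90 (SE 0.37, adjusted p = 0.104), not called. In females on day 8 it was not called without any vehicle rat or without treated rat 2, 3 or 4 (1.53 to 2.28, adjusted p = 0.0638 to 0.156). In males on day 8 it was 1.62 (SE 0.45, adjusted p = 0.0913), and was called without vehicle rat 5 (2.02, adjusted p = 0.0343). Of 15 proliferation genes 13 were called higher in experiment A, 1 and 10 in males on day 8 and day 29, and 3 and 15 in females on day 8 and day 29. The shares of all genes called higher were 14%, 0.142%, 3.16%, 0.522% and 9.55% in that order. Without rat 3 at 1500 mkd 3 were called in males on day 29. On day 8 there were 7 in males without vehicle rat 5, 2 without treated rat 2, 1 without treated rat 5 and 0 without any other rat, and in females 8 without treated rat 1 or 5 and 0 without any other rat.

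Within groups, the log2 CPM of Mki67 was called as a covariate for 2 members, both in males on day 29, against 23.9% of all genes there in either direction. Per unit of log2 Mki67, Zmat3 was higher by 0.10 (SE 0.03, adjusted p = 0.0133) and Aen was lower, at −0.13 (SE 0.04, adjusted p = 0.0206). Both calls rested on the same rat 3 at 1500 mkd, with 243.4 CPM of Mki67. Without that rat the values were 0.16 (adjusted p = 0.413) and −0.04 (adjusted p = 0.925).

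The calls were also lost without some replicate numbers: that of Zmat3 without number 2 (0.09, adjusted p = 0.0517) or 3 (0.15, adjusted p = 0.519) and that of Aen without number 3 (−0.06, adjusted p = 0.889) or 5 (−0.12, adjusted p = 0.0656). In experiment A and the remaining tables of experiment B, edgeR called 0 members and DESeq2 0, against 1.3% of all genes in experiment A, 5.82% in males on day 8, 1.52% in females on day 8 and 0.969% in females on day 29. There, 9 of 40 member tests had an unadjusted p under 0.05, against 17.2% of all gene tests. The coefficient of Cdkn1a was positive in all 5 tables, from 0.16 (SE 0.14, adjusted p = 0.443) in males on day 29 to 1.01 (SE 0.47, adjusted p = 0.323) in experiment A, and was called in none.

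Over all 20 dose comparisons in which no member was called, 36 of 200 member tests had an unadjusted p under 0.05. These counts cover both directions, and the share over all gene tests was 10.2%.

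Other genes of the pathway moved in both directions. Of 26 other p53 targets tested at 1000 mkd in experiment A, 8 were called higher, against 14% of all genes, and 3 lower. The share of all genes called lower is not given here. The median log2 fold change of these targets was 0.31, beside 0.00 over all genes. Without treated rat 2 or 4 or vehicle rat 2, 1 of the targets was lower. The death receptors Tnfrsf10b (1.23, SE 0.19, adjusted p = 0.00018) and Fas (1.15, SE 0.34, adjusted p = 0.0134), the inflammatory caspase Casp1 (1.13, SE 0.34, adjusted p = 0.0151), the glycolysis regulator Tigar (1.00, SE 0.21, adjusted p = 0.00165) and the mTOR inhibitor Ddit4 (0.86, SE 0.23, adjusted p = 0.00865) had the largest values. The 3 that fell were Dcxr, Fdxr and Ddb2, the last a DNA damage recognition factor (−0.63, SE 0.19, adjusted p = 0.0147). Without treated rat 2 Fas was not called (0.83, adjusted p = 0.0728), and Fdxr (−0.53) and Ddb2 (−0.50) were under the fold criterion. Ddb2 was also under it without treated rat 4 or vehicle rat 2, and Dcxr was not called without treated rat 4 or 5 or vehicle rat 2 (adjusted p = 0.0554 to 0.0615).

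In experiment B at 1500 mkd the only other target called was Casp1, higher in females on day 29 (1.07, SE 0.24, adjusted p = 0.00267), where 9.55% of all genes were called higher. There, 12 of the 26 targets had an unadjusted p under 0.05, against 32.7% of all genes. Without treated rat 5 of that group 4 were called, and without vehicle rat 3 or 5, 2. edgeR called 0 of 26 in males on day 8, 0 in males on day 29 and 0 in females on day 8, with 2, 7 and 6 at an unadjusted p under 0.05, against 12.6%, 27% and 14.7% of all genes. Without treated rat 3 of males on day 29, 2 were called lower, and without treated rat 1 or 5 of females on day 8, 3 or 2 were called higher.

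Regulators of p53 were read at the highest dose of each table. Chek2, a kinase that phosphorylates p53 after DNA damage, gave calls at 1500 mkd on day 29 that rested on few rats. In males it was 1.25 (SE 0.34, adjusted p = 0.0298), but 0.32 (SE 0.20, adjusted p = 0.288) without rat 3 at 1500 mkd, and it was not called without any of the vehicle rats (1.16 to 1.29, adjusted p = 0.0563 to 0.0690). In females Chek2 was 0.60 (SE 0.22, adjusted p = 0.0496), called only in the full fit or without treated rat 5 or vehicle rat 5. It was also higher, without a call, in experiment A (0.55, SE 0.20, adjusted p = 0.0422). On day 8 in experiment B it was 0.63 in males (SE 0.15, adjusted p = 0.0617) and 0.94 in females (SE 0.25, adjusted p = 0.0606). In each of these highest-dose groups all 5 treated rats were above all vehicle rats for Chek2. Such groups were found for 9.01%, 1.45% and 1.65% of all genes. Mdm4, the Mdm2 relative that restrains p53, gave 0.43 in experiment A (SE 0.18, adjusted p = 0.0761) and 0.43 in females on day 29 (SE 0.12, adjusted p = 0.0166), both under the fold criterion. On day 8 in experiment B, edgeR called 0 of 9 regulators tested in males and 0 in females. In each sex 1 had an unadjusted p under 0.05, against 12.6% of all genes in males and 14.7% in females. Without treated rat 2 or vehicle rat 5 of the males, or treated rat 1 or 5 of the females, 1, Chek2, was called.

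Genes of the integrated stress response and immediate early genes, which share inputs with Gdf15 and Btg2, were read beside them. The share of all genes called higher at 1000 mkd in experiment A was 14%. At 1000 mkd in experiment A 4 of 14 stress response genes were called higher, led by Ddit3 (1.62, SE 0.28, adjusted p = 0.000393) and Vldlr (1.07, SE 0.32, adjusted p = 0.0157), and Atf5 was lower (−0.80, SE 0.25, adjusted p = 0.0170). Without treated rat 2 or vehicle rat 1, 2 or 5, 2 were higher, and Atf5 was not called without treated rat 2 (−0.64, adjusted p = 0.0563). Of 15 immediate early genes 5 were higher there, among them Ccnd1 (1.63, SE 0.34, adjusted p = 0.00141) and Atf3 (1.26, SE 0.46, adjusted p = 0.0407), and 3 were higher without treated rat 2 or 4 or vehicle rat 1 or 2. Atf3 was not called without treated rat 2 or 4 or vehicle rat 1, 2, 3 or 4 (0.87 to 1.24, adjusted p = 0.0703 to 0.184). In experiment B the serine synthesis enzyme Phgdh was called higher at 1500 mkd in females on day 8 (2.98, SE 0.72, adjusted p = 0.0435) and day 29 (1.52, SE 0.34, adjusted p = 0.00301). The day 8 call was lost without any vehicle rat or treated rat 2, 3 or 4 (2.57 to 3.24, adjusted p = 0.0737 to 0.156). Of 13 circadian clock genes edgeR called 0 at the highest dose of each table, with 0 or 1 at an unadjusted p under 0.05.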

How the data were processed

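RNA-Seq was done on liver of 29 groups of 5 rats. The authors deposited raw read counts per gene, one table per experiment, sex and day; per the labels and the study's methods reads were trimmed with Trimmomatic, aligned with Bowtie2 to the UCSC Rn6 genome and counted over Rn6 gene models with HTSeq (tool versions not given in the sources used here). Promoter sequences come from another build, GRCr8, and were matched by symbol. Summary rows that name no gene, present in experiment B only, held 35.5% to 67.1% of a column's total and were left out.

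Groups came from the labels. The control males of day 29 carry an experiment label that differs from their strain and title, and were placed by the latter. The count columns held no identical pair.

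Genes were filtered with filterByExpr (minimum count 10) and scaled by TMM within each table. Tests were edgeR 4.0.16 quasi-likelihood F-tests (R 4.3.3) over all groups of a table, with Benjamini-Hochberg adjustment over all genes, and SE was the log2 fold change divided by the square root of F. Vehicle and interaction fits joined the tables compared. DESeq2 1.42.0, other filters and scalings, a replicate block and single rats left out were alternatives. For the other gene lists, leaving out single rats was chosen after seeing the data. Scripts were tested on simulated data. CPM are on the TMM scale.

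The members and gene lists were chosen with earlier results of these data known. Of other lists, at most 5 called genes with the largest absolute log2 fold change were named, plus Mdm4, Mki67 and, for each member, the 3 genes of highest r. An item that the rule also names is not reported here. Dcxr, Fdxr and Ddb2 fall outside this rule and were named after their values were seen. Replicate numbers are not stated to pair the rats. The mean correlation of deviations of same-numbered rats was −0.01 to 0.05 across the tables, with single pairs from −0.661 to 0.567. A mean over all pairs cannot settle whether some were paired.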

Additional observations from a re-analysis of the deposited data

Results flagged for a closer look

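Single rats stood apart for 13 of the 100 groups of 5 rats examined (10 members in the vehicle and highest-dose groups), by a gap to the nearest rat of more than 0.71 of the group's range. Chance gives about 1 in 20 for independent groups of normally distributed values. These groups share rats, and whether the CPM were normally distributed was not tested, so the 13 cannot be read as an excess over that share. In experiment A, rat 2 at 1000 mkd was the highest for Bax (18.2 CPM), Phlda3 (81.5 CPM), Btg2 (158.1 CPM) and Zmat3 (20.8 CPM), and vehicle rat 4 was the highest for Btg2 (144.1 CPM). Among experiment B vehicle females, rat 4 was the highest for Btg2 on day 8 (121.0 CPM) and on day 29 (559.2 CPM), and for Gdf15 on day 29 (52.8 CPM), while rat 3 was the lowest for Ccng1 on day 8 (27.8 CPM). Among males at 1500 mkd on day 29, rat 4 stood apart for Btg2 (114.9 CPM) and Gdf15 (3.41 CPM), and rat 3 was the lowest for Bax (7.21 CPM) and the highest for Plk2 (128.8 CPM).

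The response of Phlda3 to 1000 mkd for 7 days differed between the experiments by 1.33 on the log2 scale, larger in experiment A, by the edgeR interaction term (adjusted p = 0.0130). As given above, the call was lost without some replicate numbers, and strain, supplier and processing cannot be told apart in it.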

How the results depend on the processing

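Recomputed under the alternatives, 394 values of single members against vehicle kept their direction and side of the threshold, 12 lost a call and 10 gained one. Of the slopes 201 kept both, 61 lost a call and 2 changed sign; of the interactions 65 kept both, 2 lost and 3 gained a call; of the vehicle differences 54, 3 and 3; and of the Mki67 coefficients 70 kept both and 7 lost a call. The 2 that changed sign were slopes without the highest dose group, Btg2 in experiment A (−0.034) and Ccng1 in females on day 29 (−0.025); the cause was not tested. Without the highest dose the called slopes numbered 0 in experiment A, 0 in females on day 29, 2 in males on day 29 and 0 in males on day 8. With no filter they numbered 3 in females and 0 in males on day 29, and by rank of dose 2 in males on day 29. Leaving out 1 replicate number gave 6 to 10 called slopes in experiment A, 2 to 4 and 0 to 3 in females on day 29 and day 8, and 0 to 1 and 0 to 2 in males.

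At 1500 mkd members called numbered 1 in females on day 29 with only the vehicle and tested groups in the fit, 2 in females on day 8 by DESeq2 and 0 with only those groups or the replicate block, and 1 in males on day 8 by DESeq2. Single rats left out gave 0 to 3 in females on day 8 and 0 to 1 in males on day 8. At 1000 mkd in females on day 8 DESeq2 called 2, and 0 were called with DESeq2 size factors, at least 10 counts in every rat, no filter, only the tested groups or the replicate block. DESeq2 called 1 at 750 mkd there, as did the fit with only the tested groups, and 1 at 500 mkd in females on day 29.

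For experiment A against B, DESeq2 and the stricter filter called 2 each and leaving out a number 0 to 2. For females against males on day 29, DESeq2 called 1 difference in response, and leaving out a number gave 1 to 3 vehicle differences. DESeq2 called 2 vehicle differences between the sexes on day 8 and 1 between days in females. For Mki67 in males on day 29, 0 were called without the rat of highest Mki67 and 0 to 2 without a number. With no fold criterion, other p53 targets called numbered 3 in females and 1 in males on day 29, and p53 regulators 3 in experiment A, 4 in females and 2 in males on day 29.

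The replicate block is only a shared number here. It gave 7 called members at 1000 mkd in experiment A, 2 at 1500 mkd in females on day 29, slopes of 10 in experiment A, 4 and 4 in females on day 29 and day 8 and 1 and 3 in males, and 1 for experiment A against B. Under it Phlda3 in females on day 8 at 1500 mkd was 1.65 (adjusted p = 0.0757). For vehicle rats a block within each table was not run, as it left no residual degrees of freedom. A block shared by the tables, chosen after seeing the data, called 1 member between the sexes on day 29, Plk2, with Gdf15 at 1.58 (adjusted p = 0.0780), and changed no other vehicle count. Gdf15 had among the lowest counts of the members, at about 1 to 7 CPM in most vehicle rats. The part of counting error in its spread was not tested.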
